A study of Arabidopsis thaliana with 4 samples.

Results

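Transcript levels in larp1 mutant plantlets of Arabidopsis thaliana kept at 20 °C were compared with those in wild type (WT) plantlets kept at 20 °C, gene by gene. Of the 25819 genes in the deposited exon table, 20299 reached 50 reads in either library and were compared. Both genotypes are of the Columbia-0 accession, and the larp1 allele is not given in the sources used here. Plantlets 21 days old, grown on agar medium under continuous light, were moved in pools of 6 to 8 into liquid medium at 20 °C for 15 min and frozen whole. Each genotype is represented by 1 pool and 1 library at this temperature, so no difference has a replicate check and no p-value is given. A second larp1 pool and a second WT pool, which spent the same 15 min at 38 °C, form a pair that shares no library with the 20 °C pair, and their values are given beside it.

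LARP1 proteins are RNA-binding proteins of the La-related family. In mammals LARP1 binds mRNAs that begin with a pyrimidine-rich tract, among them those of ribosomal proteins and of the translationally controlled tumour protein, and couples their translation and stability to growth signals. In Arabidopsis, LARP1A is known to act with the exonuclease XRN4 in the breakdown of mRNAs during heat stress.

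Levels are RPM, that is reads scaled by the authors to the library; a gene's level is the sum of its distinct exon entries. The RPM total of the larp1 library corresponds to about 74419800 reads and that of the WT library to about 46065400, so low genes are measured more precisely in larp1. Log2 fold changes are larp1 over WT, of RPM plus the worth of 1 read, and brackets hold 95% intervals that cover counting error only. A gene is called higher or lower where the difference reached 2-fold and the interval did not include equality. The pools hold whole plantlets, so fewer cells of a type and less RNA per cell cannot be told apart. Markers of organs were limited in what they could show. Of 7 root markers compared, 1, the root stem cell factor PLT2, was called higher, against 3.49% of all genes. PLT2 had 0.80 RPM in larp1 and 0.34 RPM in WT, and its call was lost with a pseudocount of 0.5 RPM. The summed root list stood at 1272 RPM in larp1 and 999 RPM in WT. Of 7 shoot apex and flower markers 1, STM, had enough reads to be compared and was not called, and none of the 3 seed markers had; the seed list summed to 0.21 RPM in larp1 and 0.31 RPM in WT. The part of tissue composition in the results below was not tested.

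LARP1A (AT5G21160), the gene the mutant is named after, stood at 9.21 RPM in larp1 and 37.1 RPM in WT, a log2 fold change of -2.01 [-2.14, -1.88]. The loss was uneven along the gene. Of the 12 exon entries with at least 20 reads in either library, entry 12 held 5.80% of its WT level in larp1, entry 5 held 7.69% and entry 3 held 10.5%. Entries 6, 8 and 9 stood apart, with 60.6%, 58.9% and 61.8% of WT. The 38 °C pair showed the same 3 entries highest, at 34.3%, 55.3% and 69.0% of WT. The paralogs LARP1B (AT5G66100) and LARP1C (AT4G35890) lay close to WT, with log2 fold changes of -0.10 [-0.24, 0.05] and -0.01 [-0.09, 0.07], and none of the other 4 La-related family members compared was called.

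**Figure D1:**
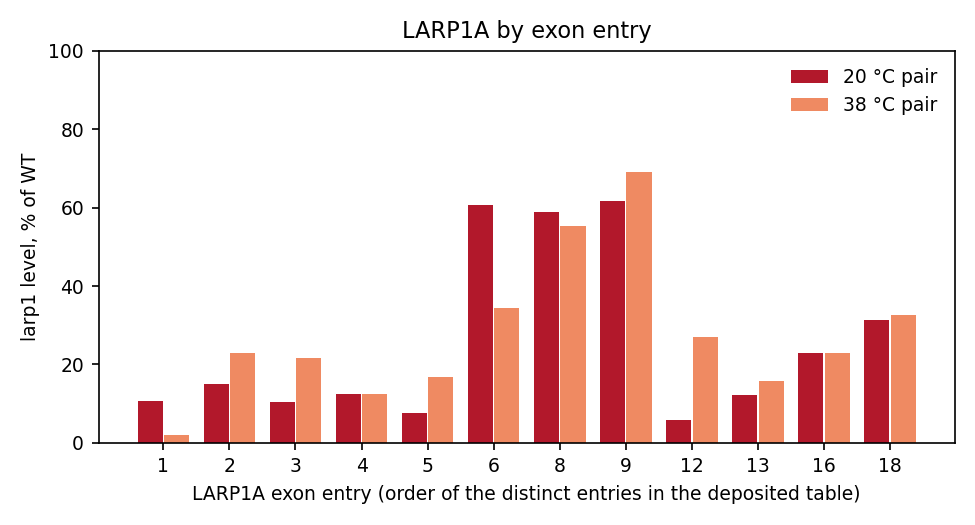
Level of LARP1A in larp1 as a percentage of WT (vertical axis) for each of the 12 distinct exon entries with at least 20 reads (horizontal axis, numbered in the order of the deposited table), in the 20 °C pair (dark bars) and the 38 °C pair (light bars). Entries 6, 8 and 9 keep 60.6%, 58.9% and 61.8% of WT at 20 °C, and every other entry keeps 31.2% or less.

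Far more genes were higher in larp1 than lower. Of the 20299 genes, 708 were called higher, which is 3.49%, and 100 were called lower, which is 0.493%, while all genes together had a median log2 fold change of 0.04. Among the higher genes, 268 differed at least 4-fold, 130 at least 8-fold and 69 at least 16-fold. Among the lower genes the counts were 13, 4 and 2. The median higher gene stood at 4.15 RPM in larp1 and 0.96 RPM in WT, so the typical higher gene had a low level in WT. The share of genes called higher was 13.2% among genes with a mean under 2 RPM and 1.46% among genes at 50 RPM and over. Low genes could more easily enter through larp1, since 50 reads amount to 0.672 RPM there and 1.09 RPM in WT. With a minimum of 1 RPM in either library instead, 612 genes were higher and 102 lower, and the shares higher were 11.8% under 2 RPM and 1.46% at 50 RPM and over. With the 50 reads, the share higher was 7.31% among genes with 1 exon entry and 1.59% among genes with 6 or more.

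**Figure D2:**
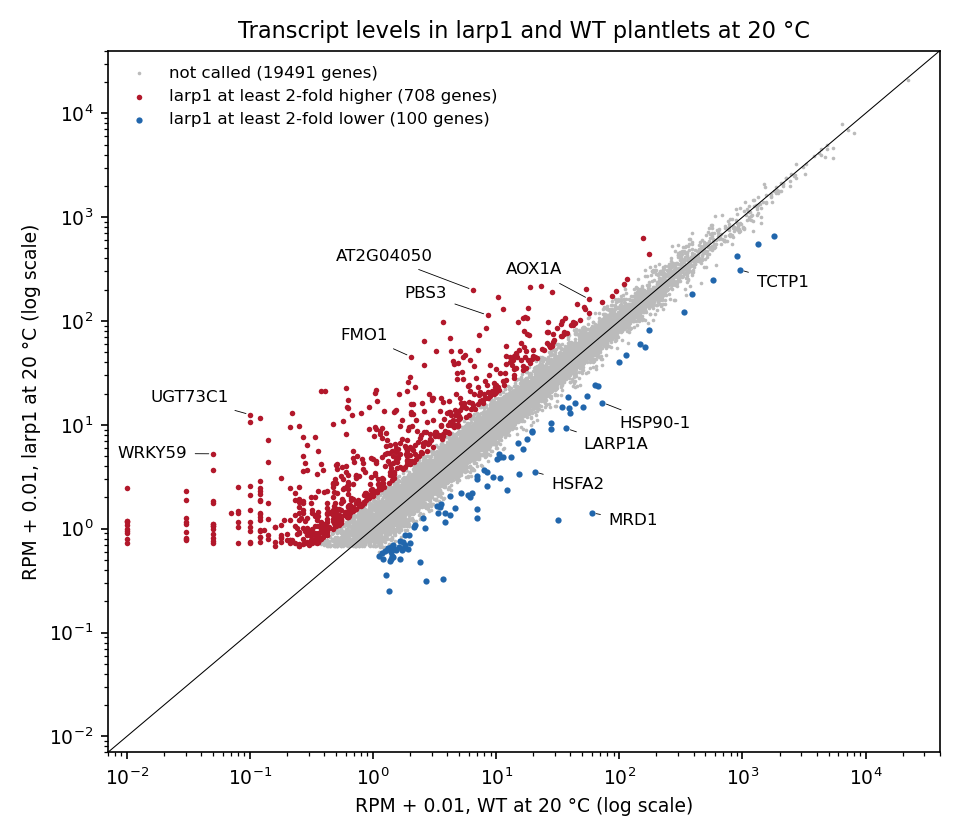
Level of each of the 20299 compared genes in larp1 (vertical axis) against WT (horizontal axis) at 20 °C, both as RPM + 0.01 on log scales, with 1 library a genotype. The 708 genes at least 2-fold higher in larp1 spread far above the diagonal at low WT levels, while the 100 lower genes include TCTP1, HSP90-1, HSFA2, LARP1A and MRD1.

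The largest increases were in genes that WT barely expressed. The F-box gene AT3G22350 had 2.48 RPM in larp1 and no reads in WT, which makes it at least 38.1-fold higher against a floor of 3 reads. The glucosyltransferase gene UGT73C1 (AT2G36750) had 12.5 RPM in larp1 and 0.09 RPM in WT, and sks8 (AT1G21850), of a family related to a cell wall protein of the multicopper oxidase type, had 10.6 RPM in larp1 and 0.09 RPM in WT. Regulators of RNA and protein fate were among the 15 genes with the largest increases: the RNA-binding Pumilio gene PUM8 (AT1G22240) had 3.64 RPM in larp1 and 0.04 RPM in WT, and the ubiquitin ligase gene ARI12 (AT1G05880) had 12.9 RPM in larp1 and 0.21 RPM in WT. Transcription factors of the WRKY family, many of which act in defence, were represented by WRKY59, with 5.25 RPM in larp1 and 0.04 RPM in WT, and WRKY55, with 21.1 RPM in larp1 and 0.40 RPM in WT. The transposable element genes AT3G29156 and AT5G35935 had log2 fold changes of 6.48 and 5.74. Among all 111 transposable element genes compared 9 were called higher, or 8.11%, against 3.49% of all genes. Their median was 0.11, against 0.04 over all genes. For the other genes of the 15, the log2 fold changes ran from 5.22 for AT3G21080 to 5.81 for AT1G06135. All 15 were also positive in the 38 °C pair, where their log2 fold changes ran from 3.28 for AT5G35935 to 6.34 for PUM8.

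Genes of salicylic acid synthesis and systemic immunity were higher together. Of 35 genes on this list, 15 were called higher, against 3.49% of all genes, and none lower, and the list median was 0.78 against 0.04 over all genes. The synthesis genes stood out: ICS1 (AT1G74710), whose enzyme makes isochorismate, had 52.2 RPM in larp1 and 7.13 RPM in WT, a log2 fold change of 2.87 [2.71, 3.04]. PBS3 (AT5G13320), which joins isochorismate to glutamate, had 113.8 RPM in larp1 and 8.50 RPM in WT, a log2 fold change of 3.74 [3.60, 3.89]. EDS5, the transporter that exports isochorismate from the plastid, had a log2 fold change of 0.41 and was not called. The genes for the systemic signal N-hydroxypipecolic acid showed the same split between steps. ALD1 (AT2G13810), which starts the pathway from lysine, had 21.7 RPM in larp1 and 1.04 RPM in WT, and FMO1 (AT1G19250), which completes it, had 45.4 RPM in larp1 and 2.01 RPM in WT. SARD4, the reductase between them, had 16.5 RPM in larp1 and 18.8 RPM in WT.

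Several regulators of this pathway lay closer to WT. The transcription factor gene CBP60G was called higher, with 131.5 RPM in larp1 and 52.9 RPM in WT, but its partner SARD1, at a log2 fold change of 0.82, was not. The upstream genes PAD4 and EDS1 had log2 fold changes of 0.78 and 0.47, and NPR1, the salicylic acid receptor, had 0.07. At the output end, PR2, a glucanase gene, had 132.6 RPM in larp1 and 18.2 RPM in WT, PR5 had 46.5 RPM in larp1 and 13.98 RPM in WT, and PR1 had 51.99 RPM in larp1 and 24.4 RPM in WT. DLO1, whose enzyme hydroxylates salicylic acid and so removes it, was higher as well, at 8.87 RPM in larp1 and 1.91 RPM in WT. Conversely BSMT1 (AT3G11480), which methylates salicylic acid and benzoic acid, was among the 15 genes with the largest decreases, at 0.32 RPM in larp1 and 3.69 RPM in WT. In the 38 °C pair 13 of the 15 higher genes of this list could be compared, and 12 were called higher again. PR1 was compared and not called, with a log2 fold change of 0.43, and NIMIN1 and WRKY62 had too few reads.

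Receptor and resistance gene families held further increases, to be read against the 3.49% of all genes called higher. Of 34 cysteine-rich receptor-like kinase genes compared, 14 were called higher and none lower, with a family median of 0.52. CRK37 (AT4G04500) had 22.9 RPM in larp1 and 0.59 RPM in WT, and its neighbour CRK36 (AT4G04490) had 51.3 RPM in larp1 and 5.05 RPM in WT. Receptor-like proteins gave 10 higher of 40, led by RLP20 at 20.13 RPM in larp1 and 1.03 RPM in WT. Resistance proteins with a TIR domain gave 9 higher of 96, among them AT4G11170 at 19.7 RPM in larp1 and 1.61 RPM in WT. Of 21 resistance genes of the coiled-coil class none was called, which at a share of 3.49% over all genes is near the background, and their log2 fold changes ran from -0.13 to 0.75; the classes were not tested against each other. WRKY factors gave 11 higher of 57 and NAC factors 10 of 60, with none lower in either family. These families were drawn up from the descriptions in the deposited table after the values had been seen.

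Camalexin, the main antimicrobial compound of Arabidopsis, had its biosynthetic genes CYP71A12 and PAD3 called higher: CYP71A12 had 27.3 RPM in larp1 and 5.35 RPM in WT, and PAD3 had 52.97 RPM in larp1 and 15.3 RPM in WT. They were the only genes called of 12 on the list of camalexin and indole glucosinolates, and none of 15 aliphatic glucosinolate genes was called. Counts in this paragraph are to be read against the 3.49% of all genes called higher and the 0.493% called lower. No call among 15 genes is near those shares. Among 19 ethylene genes, ACS2 and ACS7, which encode enzymes of ethylene precursor synthesis, were the only ones called. ACS2 had 11.2 RPM in larp1 and 2.2 RPM in WT. The jasmonate list had no gene higher, which is near the background, and 3 lower of 27, with a median of -0.05. Those 3 were DAD1, a phospholipase gene of jasmonate synthesis, with 0.47 RPM in larp1 and 2.41 RPM in WT, NATA1, an acetyltransferase gene, with 2.57 RPM in larp1 and 8.40 RPM in WT, and TAT3, an aminotransferase gene, with 40.6 RPM in larp1 and 99.1 RPM in WT. Of 3 senescence markers, SAG13 was called higher, with 27.5 RPM in larp1 and 4.77 RPM in WT, while NAP and ORE1 had log2 fold changes of -0.17 and -0.96.

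**Figure D3:**
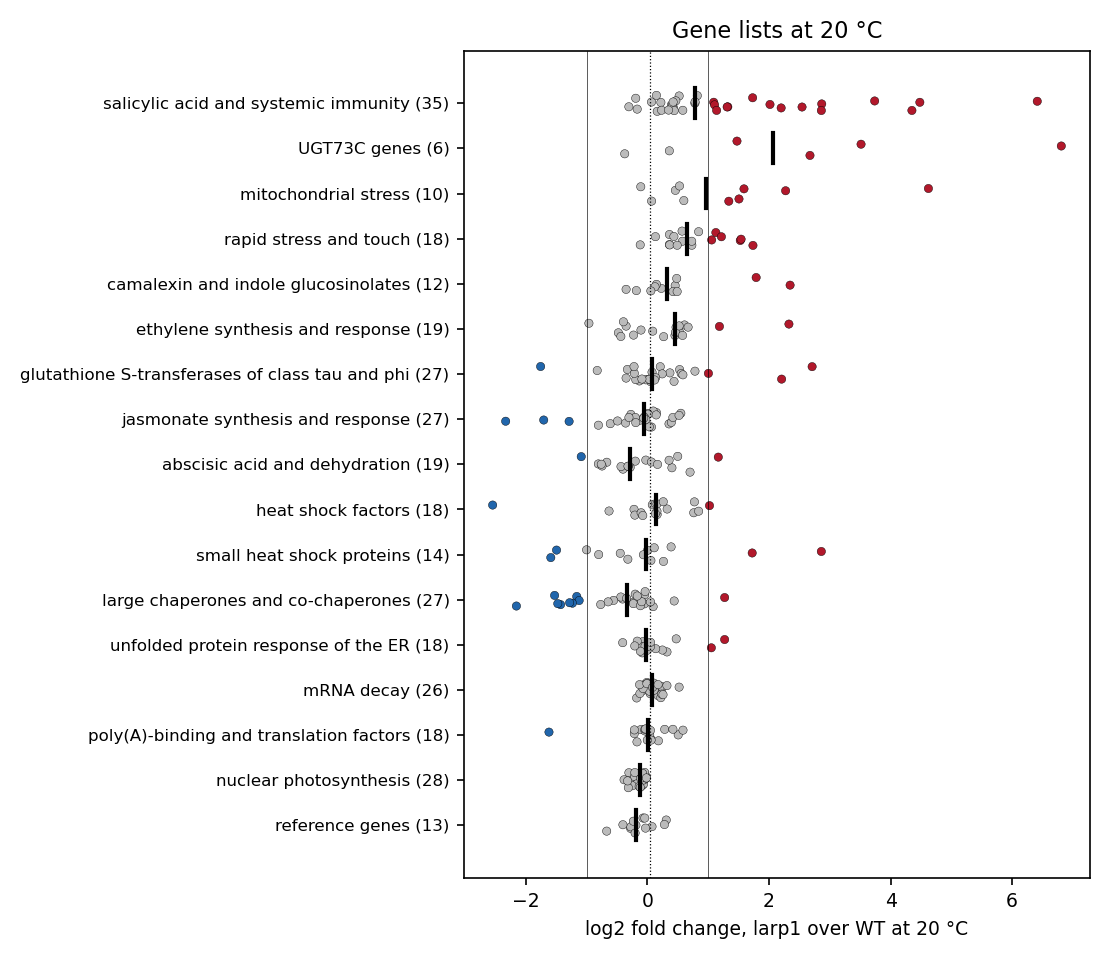
Log2 fold change of larp1 over WT at 20 °C (horizontal axis) for each compared member of 17 gene lists (rows, with the number of members compared), where red points are called higher, blue points called lower and black bars are list medians. Thin lines mark 2-fold and the dotted line the median of all genes; the salicylic acid, UGT73C and mitochondrial stress lists have medians of 0.78, 2.07 and 0.97, and the chaperone list has -0.34.

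Genes that respond to failing mitochondria formed another group of increases. The alternative oxidases pass electrons straight from ubiquinone to oxygen and relieve a blocked respiratory chain. AOX1D (AT1G32350) had 64.4 RPM in larp1 and 2.59 RPM in WT, a log2 fold change of 4.62 [4.38, 4.91], and AOX1A (AT3G22370) had 162 RPM in larp1 and 56.9 RPM in WT, a log2 fold change of 1.51 [1.45, 1.57]. UPOX (AT2G21640), an oxidative stress marker of mitochondria, had 9.43 RPM in larp1 and 1.93 RPM in WT, and OM66 (AT3G50930), an outer membrane ATPase, had 439.7 RPM in larp1 and 173.7 RPM in WT. The alternative NADH dehydrogenase gene NDB4, which was not on the list, had 14.72 RPM in larp1 and 0.60 RPM in WT, whereas NDB2 and NDA1 had log2 fold changes of 0.60 and 0.07. In all, 5 of 10 list members were called higher, against 3.49% of all genes, and none lower, with a median of 0.97, and the same 5 were higher at 38 °C. The regulator ANAC013 was one of them, at 44.7 RPM in larp1 and 14.8 RPM in WT, but the membrane-bound regulator ANAC017 was not, at 40.9 RPM in larp1 and 44.1 RPM in WT. Of 23 genes encoded in the mitochondrion itself, 1 was called higher, or 4.35%, which is near the share of all genes. It was ATMG00640, at 0.90 RPM in larp1 and 0.33 RPM in WT. Of the 23, 21 were positive, with a median of 0.33 against 0.04 over all genes. In the 38 °C pair 76 such genes were compared, with a median of 0.20 against 0.14 over all genes.

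ANAC013 and ANAC017 are known to bind a short promoter element, the mitochondrial dysfunction motif. It was searched as CTTG, any 5 bases and then CAAG or CACG, on both strands, in the 300 bases before each annotated gene start in TAIR10.1. The first form reads the same on both strands, and each place was counted 1 time. The motif was present upstream of 50 of 685 higher genes with a window, or 7.30%, and of 1 of 99 lower genes, or 1.01%. Among all 19712 compared genes with a window it was present in 223, or 1.13%. Read the other way, 50 of the 223 genes with the motif were called higher, or 22.4%, against 3.26% of the 19489 genes without it. In the 38 °C pair 41 of 185 genes with the motif were called higher, or 22.2%, against 3.73% of those without it. The motif genes reached beyond the mitochondrial stress list. They included UGT73C6, the cytochrome P450 gene CYP81D8, the ethylene response factor genes CRF5 and CRF6, and 4 of the 8 higher genes of the DUF295 family. One of these 4 was AT5G55150, at 68.9 RPM in larp1 and 4.21 RPM in WT. Of the 5 higher genes on the mitochondrial stress list, UPOX had a match in this window and AOX1A, AOX1D, OM66 and ANAC013 had none. Among all 10 compared members of that list 4 had a match, and UPOX was the only 1 of these called higher. UGT74E2, which is not on that list, had no match either.

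The windows of 3 motif genes, none of which overlaps another annotated gene, are printed because they show the element beside large differences: AT2G04050, a MATE efflux carrier gene with 2 matches (chr2:1339469-1339768, minus strand), AT2G18193, a P-loop nucleoside triphosphatase gene (chr2:7919346-7919645, minus strand), and UPOX (chr2:9254078-9254377, plus strand), all from the TAIR10.1 genome, 5′ to 3′ toward the gene, with the motif in capitals.
AT2G04050: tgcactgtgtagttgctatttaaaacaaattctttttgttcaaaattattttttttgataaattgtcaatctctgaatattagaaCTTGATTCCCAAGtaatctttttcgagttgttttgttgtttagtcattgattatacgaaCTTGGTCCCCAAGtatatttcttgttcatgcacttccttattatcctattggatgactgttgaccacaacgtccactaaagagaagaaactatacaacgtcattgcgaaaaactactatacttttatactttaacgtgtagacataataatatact
AT2G18193: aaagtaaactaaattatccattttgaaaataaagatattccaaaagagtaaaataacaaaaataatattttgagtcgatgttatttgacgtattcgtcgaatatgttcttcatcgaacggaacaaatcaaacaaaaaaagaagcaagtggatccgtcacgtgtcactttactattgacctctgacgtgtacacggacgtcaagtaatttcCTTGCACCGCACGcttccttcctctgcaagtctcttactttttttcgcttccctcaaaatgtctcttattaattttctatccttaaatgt
UPOX: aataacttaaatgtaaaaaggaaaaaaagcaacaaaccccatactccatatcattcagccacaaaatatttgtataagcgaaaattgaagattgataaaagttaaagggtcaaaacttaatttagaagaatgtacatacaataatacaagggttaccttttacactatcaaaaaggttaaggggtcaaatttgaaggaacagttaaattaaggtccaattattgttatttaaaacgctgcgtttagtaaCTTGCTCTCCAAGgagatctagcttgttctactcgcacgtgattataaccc
AT2G04050 had 198.8 RPM in larp1 and 6.45 RPM in WT. AT2G18193 had 215.5 RPM in larp1 and 22.9 RPM in WT. A match describes the letters of the window and does not show that a factor binds there.

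A second element, the W-box bound by WRKY factors, was searched as TTGACC or TTGACT on both strands. It was present in 44.5% of the windows of higher genes, 26.3% of those of lower genes and 32.3% of those of all compared genes. The as-1 core TGACG, bound by TGA factors, was present in 29.1%, 24.2% and 22.2% of the same 3 sets. On the salicylic acid and systemic immunity list, 7 of 35 windows held a W-box, or 20%, and 11 held the as-1 core, or 31.4%. A heat shock element of 3 alternating units, with GAA, TTC and GAA, or TTC, GAA and TTC, spaced by any 2 bases, was present upstream of 3 of 685 higher genes, 3 of 99 lower genes and 97 of all 19712. The W-box and the as-1 core share TGAC and differ in the base after it.

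Single genes of detoxification families were far higher in larp1, while most members of those families were not called. Over all genes 3.49% were called higher and 0.493% lower. Of 6 compared UGT73C genes, whose glucosyltransferases act on brassinosteroids and foreign compounds, 4 were called higher with a median of 2.07; UGT73C7, which lies on another chromosome than the rest, had a log2 fold change of -0.37. UGT73C6 (AT2G36790) had 130.4 RPM in larp1 and 11.4 RPM in WT, UGT73C5 (AT2G36800) had 109.9 RPM in larp1 and 17.2 RPM in WT, and UGT73C4 had 9.94 RPM in larp1 and 3.56 RPM in WT. UGT73C3, beside them, had 4.14 RPM in larp1 and 3.21 RPM in WT and was not called. These genes are close paralogs that can share reads, and AT2G36792 overlaps UGT73C6, so their separate values are uncertain. UGT74E2 (AT1G05680), which glucosylates the auxin indole-3-butyric acid, had 169 RPM in larp1 and 10.3 RPM in WT, a log2 fold change of 4.04 [3.91, 4.18]. Neighbours of AT2G04050 in the MATE efflux family moved with it: AT2G04070 had 98.2 RPM in larp1 and 3.69 RPM in WT, and DTX1 (AT2G04040) had 51.2 RPM in larp1 and 3.24 RPM in WT. Of 27 glutathione S-transferases of the tau and phi classes, 3 were called higher, or 11.1%, and 1 lower, and the median was 0.08. Among 103 UDP-glycosyltransferases 9 were called higher, or 8.74%, with a median of 0.06. Among 149 cytochrome P450 genes 11 were higher, or 7.38%, and 1 lower, with a median of 0.14. GSTU9 had 108 RPM in larp1 and 16.5 RPM in WT, and GSTU17 had 14.9 RPM in larp1 and 50.2 RPM in WT. GSTU24, with a log2 fold change of 1.00, passed the 2-fold threshold by a margin that ended under TMM, median-of-ratios and both other scalings.

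Genes of rapid stress and touch responses leaned the same way, with 6 of 18 higher, against 3.49% of all genes, none lower and a median of 0.65. These were CBF2, CBF3, DREB2B, ZAT12, CML37 and WRKY53. The calmodulin-like gene CML37 had 100.3 RPM in larp1 and 34.4 RPM in WT, and CBF3, a regulator of cold responses, had 4.46 RPM in larp1 and 1.32 RPM in WT. The plantlets had been moved into liquid shortly before harvest, and whether handling differed between the pools was not tested. At 38 °C 2 of the 6 were called higher. The abscisic acid and dehydration list had 1 gene higher and 1 lower of 19 and a median of -0.28: NCED3, the rate-limiting enzyme of abscisic acid synthesis, had 23.2 RPM in larp1 and 10.3 RPM in WT, while RD29A, a cold and drought response gene, had 426 RPM in larp1 and 905 RPM in WT.

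Heat shock genes were among the clear decreases. Of 18 heat shock factors, HSFA2 was called lower and HSFA4A higher, at a log2 fold change of 1.02 that was 0.98 under TMM scaling. HSFA2 (AT2G26150), a heat-induced transcription factor that prolongs chaperone expression, had 3.51 RPM in larp1 and 20.5 RPM in WT, a log2 fold change of -2.54 [-2.75, -2.35]. HSP90-1 (AT5G52640), the heat-inducible cytosolic HSP90, had 16.4 RPM in larp1 and 72.9 RPM in WT, a log2 fold change of -2.15 [-2.25, -2.06]. Of 27 large chaperones and co-chaperones, 8 were called lower and 1 higher, 23 were negative, and the median was -0.34; over all genes 0.493% were lower and 3.49% higher. Besides HSP90-1 the lower members were HSP70-4 at 55.7 RPM in larp1 and 160.4 RPM in WT, HSC70-3 at 652 RPM in larp1 and 1811 RPM in WT, the disaggregase HSP101 at 16.1 RPM in larp1 and 43.2 RPM in WT, HSP90-2, HSP90-3, HOP3 and ROF2. The cytosolic HSP90 genes and HSC70 genes are close paralogs whose reads can be shared. The 1 higher member was BIP3, a stress-induced chaperone of the endoplasmic reticulum, with 2.67 RPM in larp1 and 1.09 RPM in WT. BZIP60, the transcription factor that induces it, had 196 RPM in larp1 and 94.5 RPM in WT. These 2 were the genes called of 18 on the list of the unfolded protein response.

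Small heat shock proteins did not share one direction. HSP17.8-CI and HSP17.6A-CI were lower, with log2 fold changes of -1.59 and -1.49, and HSP23.6-MTI and HSP17.4-CI were higher, with 2.86 and 1.72. HSP23.6-MTI, which works inside mitochondria, had 3.78 RPM in larp1 and 0.50 RPM in WT. HSP23.6-MTI and HSP17.4-CI both carried the mitochondrial dysfunction motif in their upstream window. HSP17.4-CI also had 2 matches of the heat shock element there, and HSP23.6-MTI had none. The other 10 of 14 compared were not called. Over all genes 3.49% were called higher and 0.493% lower. In the 38 °C pair none of 16 small heat shock protein genes compared was called, with a median of -0.06. Over all genes in that pair 3.92% were called higher and 0.2% lower. At 38 °C, where both genotypes expressed heat shock genes strongly, HSFA2 stood at 3548 RPM in larp1 and 3677 RPM in WT and HSP90-1 at 7425 RPM in larp1 and 7393 RPM in WT. All 8 chaperone genes lower at 20 °C had log2 fold changes between -0.07 and 0.05 in the 38 °C pair. Whether the 20 °C pools differed in an incidental warming or handling stress was not tested.

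**Figure D4:**
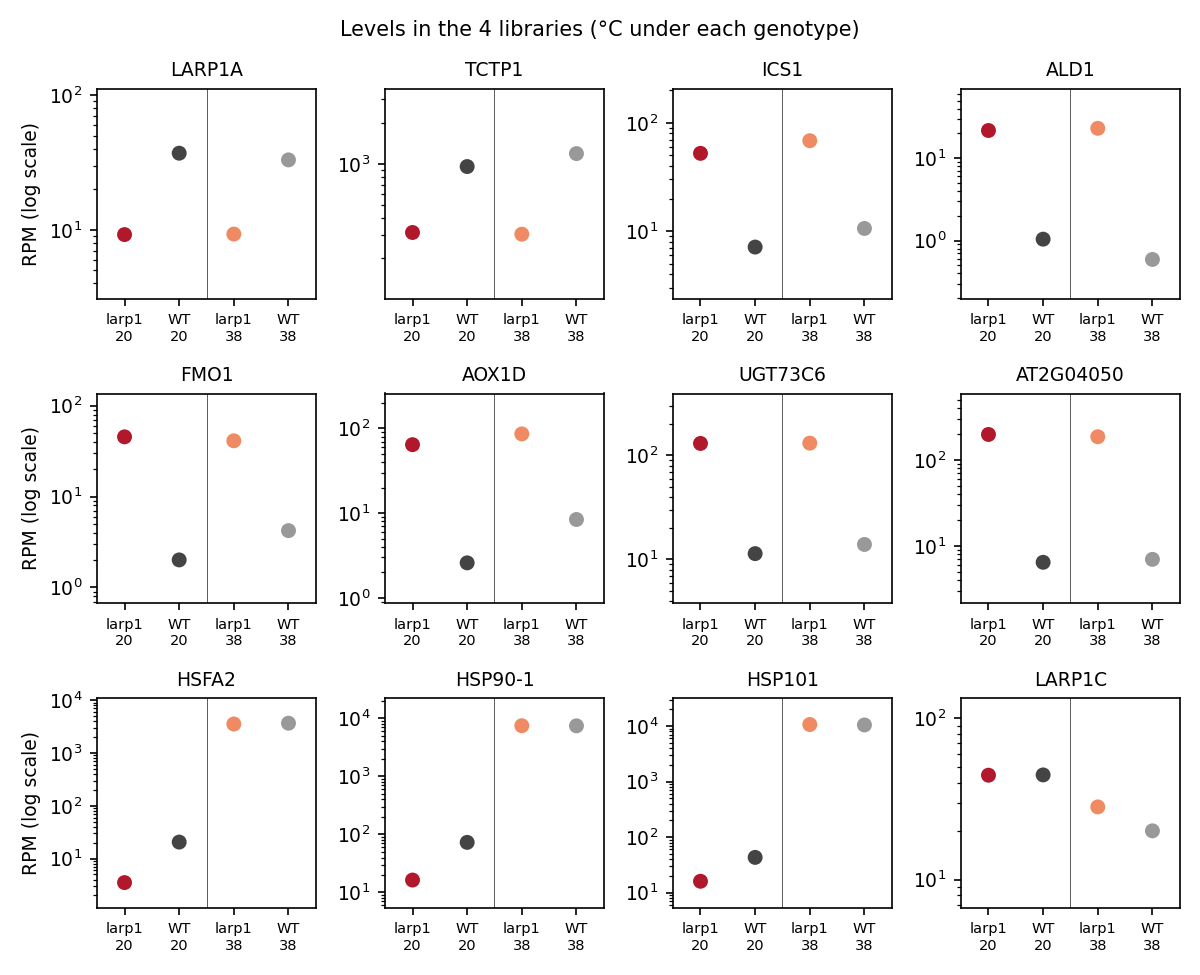
RPM (vertical axes, log scale, different ranges) of 12 genes in the 4 libraries, with larp1 left of WT at each temperature and 1 pool per point. LARP1A and TCTP1 are lower in larp1 at both temperatures, ICS1, ALD1, FMO1, AOX1D, UGT73C6 and AT2G04050 are higher at both, and HSFA2, HSP90-1 and HSP101 differ at 20 °C but not by 2-fold at 38 °C, where HSFA2 has 3548 RPM in larp1 and 3677 RPM in WT.

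The genotype difference was next set beside the 38 °C pair, in which 726 of 18528 genes were called higher, or 3.92%, and 37 lower, or 0.2%. Increases recurred: of the 708 genes higher at 20 °C, 514 could be compared at 38 °C, and 396 of them were higher there and none lower. Among all 18314 genes compared in both pairs, 3.92% were higher and 0.191% lower at 38 °C. The 396 make up 55.9% of the genes higher at 20 °C and 54.5% of those higher at 38 °C. Of the 100 genes lower at 20 °C, 65 could be compared, 12 were lower and 5 higher, with a median of -0.09 at 38 °C against -1.37 at 20 °C. Across 18314 genes compared in both pairs the log2 fold changes had a Pearson correlation of 0.708 and a Spearman correlation of 0.399, as a description over genes, which are not independent. The median over all genes was 0.14 at 38 °C, a shift that TMM scaling moves by -0.15.

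**Figure D5:**
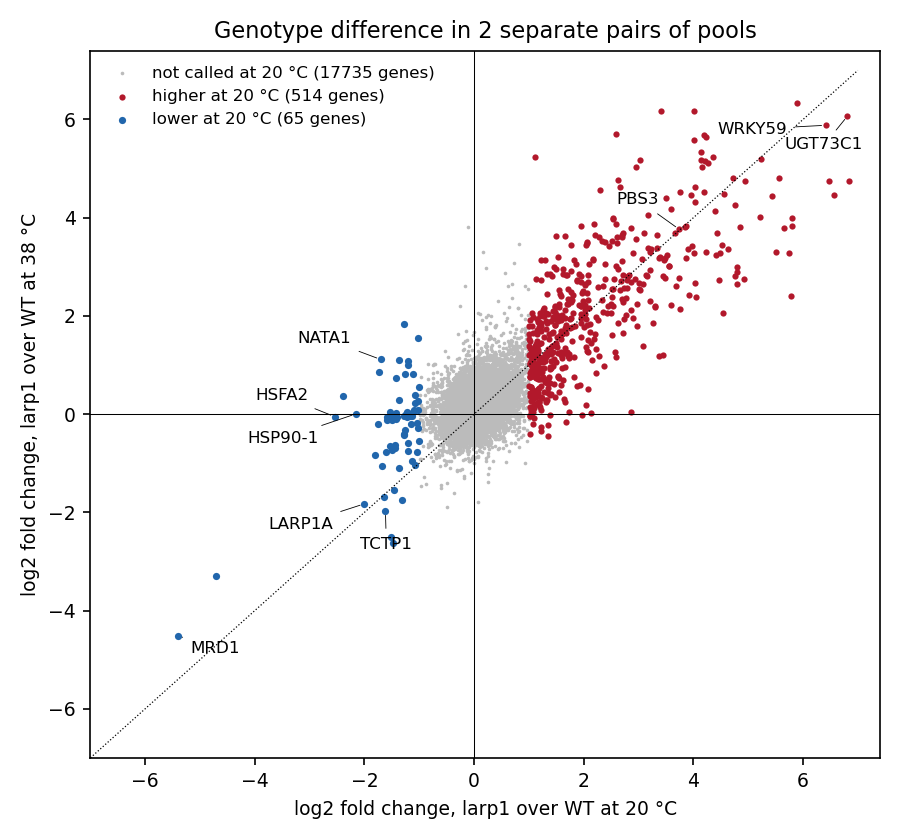
Log2 fold change of larp1 over WT in the 38 °C pair (vertical axis) against the 20 °C pair (horizontal axis) for 18314 genes, with genes called higher at 20 °C in red and lower in blue. Of the 514 red genes, 502 lie above 0 at 38 °C, while many blue genes, such as HSFA2 and HSP90-1, lie near 0 and a few, such as MRD1, LARP1A and TCTP1, stay low.

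The 12 genes lower at both temperatures were LARP1A, TCTP1, DI19, ARFA1E, MRD1, HEI10, FLC, CYP71B22, AT3G15356, AT4G11211, AT4G12490 and AT5G41761. TCTP1 (AT3G16640), the translationally controlled tumour protein and a growth regulator, had 310.6 RPM in larp1 and 954 RPM in WT, a log2 fold change of -1.62 [-1.64, -1.60]. Its 3 exon entries with enough reads held 25.9%, 32.1% and 34.7% of WT, so all 3 were lower. At 38 °C TCTP1 had 302 RPM in larp1 and 1189 RPM in WT. DI19 (AT1G56280), a zinc-finger factor of drought responses, had 121.5 RPM in larp1 and 336 RPM in WT, and ARFA1E (AT3G62290), a small GTPase of vesicle traffic, had 59.6 RPM in larp1 and 148 RPM in WT. MRD1 (AT1G53480) showed the largest decrease of all compared genes, at 1.41 RPM in larp1 and 59.96 RPM in WT. Its 2 exon entries had 29.05 RPM and 30.91 RPM in WT and may count the same reads, so these summed levels may be too high. HEI10 (AT1G53490) overlaps MRD1 and carries its description in the deposited table, so the value of 1.21 RPM in larp1 and 31.8 RPM in WT cannot be assigned to HEI10. FLC, the repressor of flowering, was low in both, at 0.50 RPM in larp1 and 1.63 RPM in WT.

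Other large decreases at 20 °C had no call at 38 °C. They included ILL5, of the auxin amidohydrolase family, at 0.30 RPM in larp1 and 2.70 RPM in WT, the chitinase gene AT2G43620 at 2.33 RPM in larp1 and 12.3 RPM in WT, the proline transporter gene ProT3 at 3.32 RPM in larp1 and 15.2 RPM in WT, and GolS3, a galactinol synthase gene, at 1.55 RPM in larp1 and 6.97 RPM in WT. BSMT1, ILL5, ProT3 and GolS3 had too few reads at 38 °C to be compared there, with at most 1.16 RPM in WT. AT2G43620 was compared and had a log2 fold change of 0.38 at 38 °C.

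Housekeeping groups held few called genes, to be read against the 3.49% of all genes called higher and the 0.493% called lower. At these shares a short list without a call is near the background. Of 317 ribosomal protein genes 2 were called higher, or 0.631%, and none lower, and the family median was 0.00. The 2, named after their values were seen, were AT5G40040, at 1.84 RPM in larp1 and 0.11 RPM in WT, and AT3G09680, at 1.03 RPM in larp1 and 0.09 RPM in WT. None of 26 mRNA decay genes was called, with a range of log2 fold changes from -0.18 to 0.52. Among 18 genes of poly(A) binding and translation, TCTP1 was the only one called, and the median was 0.02. All 28 nuclear photosynthesis genes were negative at 20 °C: they ran from -0.38 to -0.02, with a median of -0.13, and none was called. The photosynthesis list summed to 84450 RPM in larp1 and 93134 RPM in WT. In the 38 °C pair its median was -0.47, again with none called, and it summed to 53931 RPM in larp1 and 77670 RPM in WT. None of 13 reference genes was called, and their median was -0.19. The lists of iron, phosphate, nitrate and sulfate use, the clock, the cell cycle, cell wall expansion, flavonoids and reactive oxygen enzymes also had no called gene, and the hypoxia list had 1, HRE2, at 4.27 RPM in larp1 and 1.04 RPM in WT.

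Higher genes sat beside one another on the chromosomes. Of 707 higher nuclear genes, 160 had another higher gene as a direct neighbour among the compared genes, or 22.6%, against 6.21% of 19348 genes that were not called. With neighbours that overlap each other left out, the shares were 19.8% and 5.78%. The longest runs held 4 genes. They were the berberine bridge enzyme-like genes from AT1G26380 to AT1G26420, and AT4G09100 to AT4G09130, of the RING-finger type. The third such run held AT4G04480 and the receptor-like kinase genes CRK36, CRK37 and CRK38. Members of such tandem families are similar in sequence, and how far shared reads enter these shares was not tested.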

How the data were processed

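RNA was sequenced from 4 pools of 6 to 8 whole plantlets, 1 library a group. Ribosomal RNA was depleted, per the labels' protocols, by a duplex-specific nuclease, which can also lower other very abundant transcripts, and single reads were sequenced. The submitters' processing notes name BWA 0.5.9 and TAIR10; which program counted reads, and whether by strand, is not given in the sources used here, so overlapping and antisense genes are uncertain. The deposited table gives each exon entry a signal that is called RPM per the file headers; it was read as a signal because its columns sum to 1065440 in larp1 and 1056660 in WT at 20 °C, above what RPM allows. It has 181379 entries, of which 132172 are distinct within their gene, and no coordinates. The deposited gene tables of heat responses, which hold ratio (fold) and signal values, were not used here.

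The gene value was the sum of distinct entries. Entries of a gene were merged only where their values were identical, so near copies were summed. Among others this holds for HSC70-3, WRKY55, ANAC013, MRD1, ICS1 and EDS1, whose levels may be too high and intervals too narrow. Values were whole multiples of the worth of 1 read within rounding for at least 99.9% of values. The worth was 0.0134 RPM in larp1 and 0.0217 RPM in WT at 20 °C and 0.0223 RPM in larp1 and 0.0235 RPM in WT at 38 °C. The reads recovered in this way served for the minimum of 50 reads, the floor of 3 reads and the 95% intervals (conditional binomial, exact Clopper-Pearson). Because values are rounded to 2 decimals, no count model was used; the planned unit was counts. Intervals cover counting error only, since PCR copies are not independent molecules, and entries that overlap can count a read more than once. The name of the larp1 20 °C column ends in an unexplained suffix.

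Named genes are the 3 LARP1 genes, the 15 highest and 15 lowest called nuclear genes with at least 100 reads, and of each list the 4 members with the largest change and the most abundant one; further members and the 21 families were named after their values were seen. The comparison, the 33 lists and the rule were chosen with earlier results of these data known. Symbols and promoter windows of 300 bases come from the TAIR10.1 assembly of RefSeq, in which 25408 genes were matched; 864 genes carry the description of another locus. Alternatives were other scalings, minimums, pseudocounts, gene values and thresholds. The calling was tested on simulated reads that held counting error only, with planted changes larger than the 2-fold threshold. That test could not cover variation between pools, PCR copies or entries that overlap. Scripts ran in Python 3.11.15 with pandas 2.3.3, numpy 2.4.6 and scipy 1.17.1, and figures were drawn with matplotlib 3.10.9.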

Additional observations from a re-analysis of the deposited data

Results flagged for a closer look

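For 5 genes the difference between larp1 and WT had opposite directions at the 2 temperatures, each past 2-fold, with 1 library a group; the difference between the temperatures was not tested. AT1G30250 had log2 fold changes of -1.28 at 20 °C and 1.84 at 38 °C. NATA1, an acetyltransferase gene of the jasmonate list, had -1.70 at 20 °C and 1.11 at 38 °C. AT3G28270 had -1.37 at 20 °C and 1.11 at 38 °C, with 24.3 RPM in larp1 and 63.1 RPM in WT at 20 °C. The transporter gene ABCG27 had -1.02 at 20 °C and 1.54 at 38 °C. PGL5, a gene of the 6-phosphogluconolactonase family, had -1.21 at 20 °C and 1.07 at 38 °C, with 14.8 RPM in larp1 and 34.4 RPM in WT at 20 °C.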

How the results depend on the processing

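The excess of higher over lower genes was present under every alternative run, from 77.5% of calls with no minimum of reads to 93.3% at 3-fold, against 87.6% as reported. A minimum of 10 reads gave 1123 genes higher and 258 lower, no minimum gave 1169 and 340, and a 3-fold threshold gave 360 and 26. A pseudocount of 0.5 RPM gave 506 higher and 66 lower, against 708 and 100 as reported. With only exon entries of at least 1 RPM in any library, 569 genes were higher and 98 lower. Of those 569, 540 were among the 708. TMM scaling gave 671 higher and 114 lower, and median-of-ratios scaling gave 666 and 116. The share of genes higher at 20 °C that were also higher at 38 °C was 65.4% with a minimum of 1 RPM, 68.6% with a pseudocount of 0.5 RPM and 64.7% at 3-fold. The median of the jasmonate list was -0.09 with TMM scaling, -0.10 with median-of-ratios scaling and -0.10 with totals without the 100 highest genes, and that of the mitochondrial stress list was 1.51 with a minimum of 10 reads, which adds its rarely read members. Of 557 values of 70 called named genes under the alternatives, 543 kept their call, 14 lost it and none changed sign. No paired analysis was possible because the groups compared at 20 °C have 1 library each and so share a single replicate number. Without replicates, biological variation between pools was not measured, and the lower depth of WT limits genes with few reads.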
